A study of Mus musculus with 12 samples.

Results

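Poly-A RNA of the heart ventricles of 6 wild-type (WT) mice, numbered WT1 to WT6, was described here as a baseline. The animals were male, 7 weeks old and fed chow, and the sources used here do not give their strain, or whether they carried floxed alleles or a Cre transgene. The 6 WT samples were chosen by their genotype label out of 12 samples in the series, and the other samples entered no step. Each sample is a separate mouse, and neither a dissection batch nor a time of collection is stated for them. Libraries held 13348018 to 15562942 gene counts. Each level below is in CPM, a read count divided by the TMM-scaled library size and set to a common depth for all mice. It follows the share of reads a gene takes, which grows with its length, so the ranking by CPM is one of reads, and levels of genes were compared as CPM per kb of exon. In RNA of whole tissue, fewer cells of a type and less RNA per cell cannot be told apart.

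The ventricle wall is built of cardiomyocytes, which make up most of its volume, with endothelial cells, fibroblasts, pericytes and macrophages between them. A cardiomyocyte shortens when calcium released from the sarcoplasmic reticulum binds troponin and lets myosin heads pull on actin, and it relaxes when the pump SERCA2a returns the calcium. The adult heart pays for this with ATP made in mitochondria, mostly from fatty acids. Mouse ventricles after the first weeks of life use alpha myosin heavy chain and the ventricular light chains, whereas atria use their own light chains and the SERCA regulator sarcolipin.

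The labelled tissue was first checked against its defining genes. The ventricular light chain gene Myl2 was at 6309 ± 311 CPM (SD, n = 6), and the ventricular transcription factor genes Irx4 and Hey2 were at 17.1 ± 2.09 and 6.61 ± 0.881 CPM. Of 11 listed ventricular genes, 10 had counts, and Hand1, a transcription factor of the embryonic left ventricle, was at 0 in every mouse. Y-linked genes were present in all 6 mice, with Ddx3y between 125.7 and 146.3 CPM. The lung gene Sftpc and the liver gene Alb stayed at or below 0.153 and 0.0725 CPM. One library, WT4, stood apart in genes of the atrium, as described below, and results that touch those genes are given with and without it. Vps13c, the gene targeted in the other samples of the series, was at 61.8 ± 4.81 CPM (SD, n = 6) in these WT ventricles and ranked 2185 by mean CPM.

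A few transcripts took a large part of the reads. The 10 most abundant genes held 35.2% ± 0.629 of the counts (SD, n = 6), the 50 most abundant held 45.2% ± 0.548, and 101.7 ± 6.83 genes were enough to reach 50%. All of the 25 most abundant genes belonged to 4 functions: 7 were encoded by mitochondrial DNA, 9 were sarcomere genes, 8 were genes of energy metabolism, and 1, Atp2a2, encodes the SERCA2a pump. Below them the library spread over a long tail. Mean CPM reached 1000 in 68 genes, 100 in 1259 genes, 10 in 7897 genes and 1 in 11971 genes.

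Of the top 10 ranks, 6 were mitochondrially encoded. The first was mt-Co1 (ENSMUSG00000064351), the catalytic subunit of cytochrome c oxidase. Its level in WT1 to WT6 was 122200, 119300, 119700, 128600, 117300 and 127500 CPM, a mean of 122400 ± 4642 (SD, n = 6) and 12.2% of all counts. The mice lay close together, and the highest, WT4, stood little above WT6. Cytochrome b, mt-Cytb, followed with 48330 ± 2368 CPM, and then the complex I subunits mt-Nd5 with 36910 ± 1030, mt-Nd1 with 35310 ± 1347 and mt-Nd2 with 27930 ± 964 CPM. WT4 was the highest mouse for 7 of the 13 mitochondrially encoded genes, and for 16.9% of all genes at 5 CPM or more.

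By reads, the first nuclear gene was Myh6 (ENSMUSG00000040752, chromosome 14), the alpha myosin heavy chain that drives fast cross-bridge cycling in the mouse heart. Its level in WT1 to WT6 was 27140, 26270, 26790, 23710, 26090 and 28030 CPM, a mean of 26340 ± 1463 (SD, n = 6). WT4 was the lowest and the other 5 mice lay between 26090 and 28030 CPM. Atp2a2 (ENSMUSG00000029467, chromosome 5) came next among nuclear genes with 15520 ± 587 CPM and a range of 14660 to 16350. Thin-filament genes followed: cardiac actin, Actc1, with 8289 ± 375 CPM, the troponin T gene Tnnt2 with 7001 ± 411 and the tropomyosin gene Tpm1 with 6498 ± 245. Titin, Ttn, the giant elastic protein of the sarcomere, was at 5403 ± 386 CPM.

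Among genes of energy metabolism, Lpl took the most reads, although its long exons put it at 759.6 CPM per kb, below Mb at 3251. It encodes lipoprotein lipase, which frees fatty acids from blood lipoproteins for uptake. In WT1 to WT6 it was at 7931, 7724, 8045, 8189, 7862 and 8004 CPM, so the highest and lowest mouse differed little, and its mean was 7959 ± 160 CPM (SD, n = 6). Cd36, the fatty acid transporter, was at 2492 ± 85.3 CPM and myoglobin, Mb, the oxygen store of the cell, at 4850 ± 288 CPM. The ATP synthase subunits Atp5b and Atp5a1 were at 4005 ± 118 and 3810 ± 95.9 CPM. Pdk4, the kinase that shuts pyruvate out of the citric acid cycle, was the least even of the 25 genes, with 2252, 1940, 1782, 2033, 2909 and 2171 CPM in WT1 to WT6. WT5 was high and WT3 low for Pdk4, and the other 4 mice lay between 1940 and 2252 CPM.

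**Figure D1:**
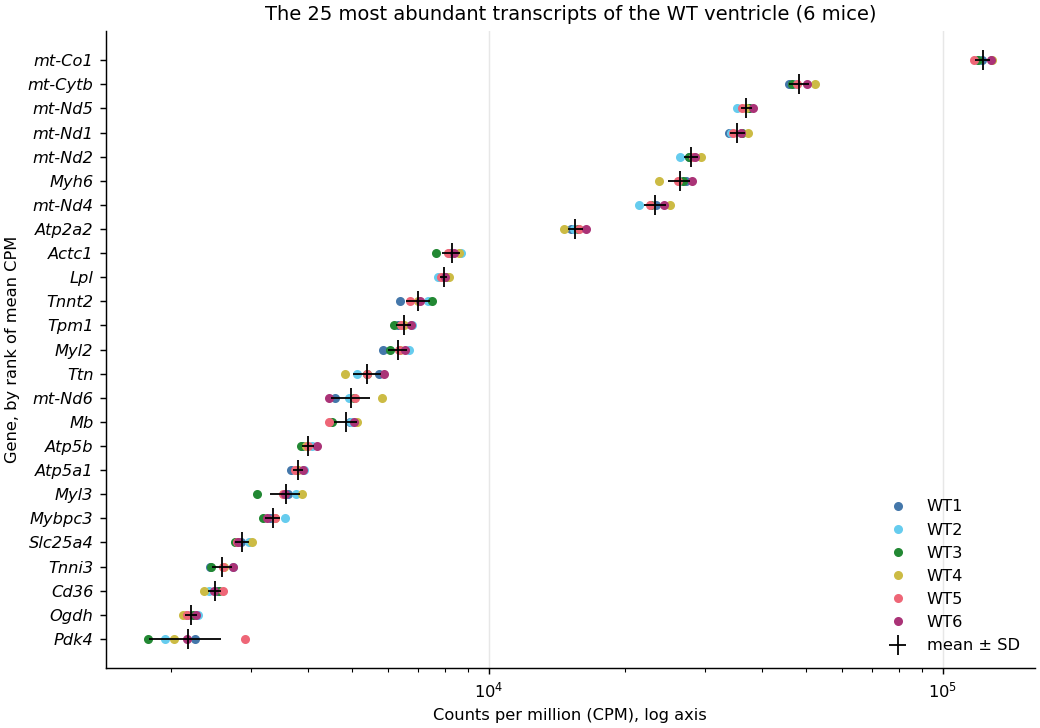
CPM (log axis) of the 25 most abundant genes in each of the 6 WT mice (points), with the mean (vertical tick) and SD (horizontal line). The points of a gene lie close together, from mt-Co1 at 122400 CPM to Pdk4 at 2181 CPM, and Pdk4 and mt-Nd6 are the most spread.

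Neighbours in this order were compared in pairs of genes within the 6 mice. In 15 of the 24 pairs the higher gene was higher in 6 of 6 mice, and each of these gave the smallest p that 6 mice allow (two-sided exact paired permutation test, p = 0.0312, adjusted p = 0.05 over the 24 pairs). Of the 24 pairs, 0 had an adjusted p under 0.05. The order was set from the same 6 mice, so these p-values describe it and cannot test it. Ranks were least settled where genes lay together: mt-Nd6 and Mb (exact permutation p = 0.594, the first higher in 3 of 6 mice), Ogdh and Pdk4 (exact permutation p = 0.781, 4 of 6), and Tnni3 and Cd36 (exact permutation p = 0.25, 3 of 6). Myh6 exceeded mt-Nd4 in 5 of 6 mice, and the exception was WT4.

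Gene length shapes the order by counts. Per kb of exon, the first 7 ranks were all mitochondrially encoded, and the nuclear order opened with Actc1 at 5123 ± 232 CPM per kb (SD, n = 6), Myh6 at 3916 ± 218, Mb at 3251 ± 193, Myl2 at 3236 ± 160 and Atp2a2 at 2553 ± 96.4 CPM per kb. The next places went to Fabp3, the carrier of fatty acids in cardiomyocyte cytosol, at 2412 ± 230, the light chain gene Myl3 at 1749 ± 133, the troponin I gene Tnni3 at 1258 ± 62.6, the ADP/ATP carrier gene Slc25a4 at 1218 ± 42.7 and Atp5a1 at 1215 ± 30.6 CPM per kb. Ttn, with 117 kb of merged exons, was 14th by counts and 574th per kb, at 46.3 CPM per kb. Per kb, 20 of the 25 leading genes were among the 25 leading genes by counts.

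The 13 mitochondrially encoded genes held 30.1% ± 0.761 of the counts (SD, n = 6). By mouse, WT1 to WT6, the share was 29.9, 29.2, 30.0, 31.4, 29.6 and 30.4%, with WT4 highest and WT2 lowest. The genes differed widely although they are read from shared precursor RNAs. Per kb, mt-Co1 was at 79240 CPM, mt-Cytb at 42240 and mt-Nd6, the gene on the other strand, at 9613. The oxidase subunit genes mt-Co2 and mt-Co3 were at 1074 and 879 CPM per kb, mt-Atp6 at 336 and mt-Nd3 at 190 CPM per kb. The short genes mt-Nd4l and mt-Atp8 were at 9.67 and 0.234 CPM. Values of the low mitochondrial genes are uncertain: nuclear DNA holds near-identical copies of mitochondrial genes, and mt-Atp8 shares 21.1% of its length with mt-Atp6 on the same strand. The part of such copies in these levels, and so in the share of the whole class, was not tested. The low members also moved apart: mt-Co2 was highest in WT6 (992 CPM, against 632 to 790 in the others), where mt-Co3 was lowest (509.5 CPM, against 636 to 890).

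Sarcomere genes, 61 by the list used, held 9.13% ± 0.195 of the counts (SD, n = 6), and 213 genes of energy metabolism held 10.3% ± 0.150. Within energy metabolism, fatty acid use had 2.67% ± 0.0858, nuclear subunits of respiratory complexes II to V with ATP synthase 2.30% ± 0.0612, the citric acid cycle with pyruvate entry 1.81% ± 0.0260 and glycolysis 1.10% ± 0.0269. Nuclear subunits of complex I had 0.664% ± 0.0220. Genes of ketone and branched-chain use held 0.468% ± 0.00655, led by Oxct1, the enzyme that activates ketone bodies for burning, at 1410 ± 52.3 CPM. Cytosolic ribosomal protein genes held 0.843% ± 0.0347 and genes of calcium handling and excitation 2.97% ± 0.0827. Without the mitochondrially encoded genes in the total, sarcomere genes held 13.1% and energy genes 14.7% of counts. Per kb of exon, the mitochondrially encoded share was 56.8%, the energy share 9.43% and the sarcomere share 6.10%.

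Among the enzymes and carriers behind these shares, 3 of 207 at 5 CPM or more passed the threshold for variable genes used below. In beta-oxidation, the trifunctional protein genes Hadha and Hadhb were at 1502 ± 67.0 and 1468 ± 36.0 CPM (SD, n = 6), and Acadm, the medium-chain dehydrogenase, at 1208 ± 36.4 CPM. In the citric acid cycle, Mdh1 of the malate shuttle was at 1726 ± 57.4 CPM and citrate synthase, Cs, at 1395 ± 60.5 CPM. Sdha, the flavoprotein of complex II, took the most reads of the nuclear respiratory genes beside ATP synthase, at 1540 ± 61.5 CPM. Ckmt2, the mitochondrial creatine kinase, which passes ATP energy to creatine, was at 1158 ± 50.6 CPM, and the phosphate carrier gene Slc25a3 at 1067 ± 44.3 CPM. Glycolytic genes were led by Aldoa with 1179 ± 39.6, Pygm with 1094 ± 22.6 and Ldhb with 1040 ± 32.8 CPM. Bdh1, which interconverts the 2 main ketone bodies, was one of the 3, with 34.6, 49.4, 26.0, 52.4, 48.7 and 39.9 CPM in WT1 to WT6, and the call was lost without WT3.

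Calcium-handling genes followed Atp2a2. Ryr2, the release channel of the sarcoplasmic reticulum, was at 2098, 1748, 1849, 1623, 2029 and 2146 CPM in WT1 to WT6, a mean of 1916 ± 208 (SD, n = 6), and was the least even of the abundant members. Its partners in the reticulum were tighter: sarcalumenin, Srl, at 1306 ± 55.4, the calcium-binding protein gene Hrc at 1283 ± 46.9, phospholamban, Pln, the brake on SERCA2a, at 1196 ± 58.0 and calsequestrin, Casq2, at 1073 ± 37.5 CPM. At the surface membrane, the sodium-calcium exchanger gene Slc8a1 was at 465 ± 32.6 and the L-type calcium channel gene Cacna1c at 351 ± 27.8 CPM, both named after their values were seen. The potassium channel gene Kcna5 and the sodium channel subunit gene Scn4b were the variable members, with their lowest levels in WT5 (18.7 CPM) and WT6 (17.2 CPM).

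Class shares differed little between mice. The lowest and highest mouse were at 8.80 and 9.39% for sarcomere genes and at 10.1 and 10.5% for energy genes. Fatty acid genes were highest in WT5, at 2.84%, while the other 5 mice lay between 2.62 and 2.64%. Ucp3, an uncoupling protein of muscle mitochondria, is a member of this list, so its level is part of the share. It was at 177.5 CPM in WT5 and 109.5 to 138 CPM in the others. Pdk4, above, itself counted in energy metabolism, was highest in WT5 too. Nuclear subunits of the respiratory chain and ATP synthase were low in WT1 and WT3. Of 42 such genes of complexes II to V at 5 CPM or more, 18 had their lowest level in WT1 and 20 in WT3. For complex I it was 12 and 18 of 36. Over all 9510 genes at that level, 17.9% were lowest in WT1 and 17.0% in WT3.

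**Figure D2:**
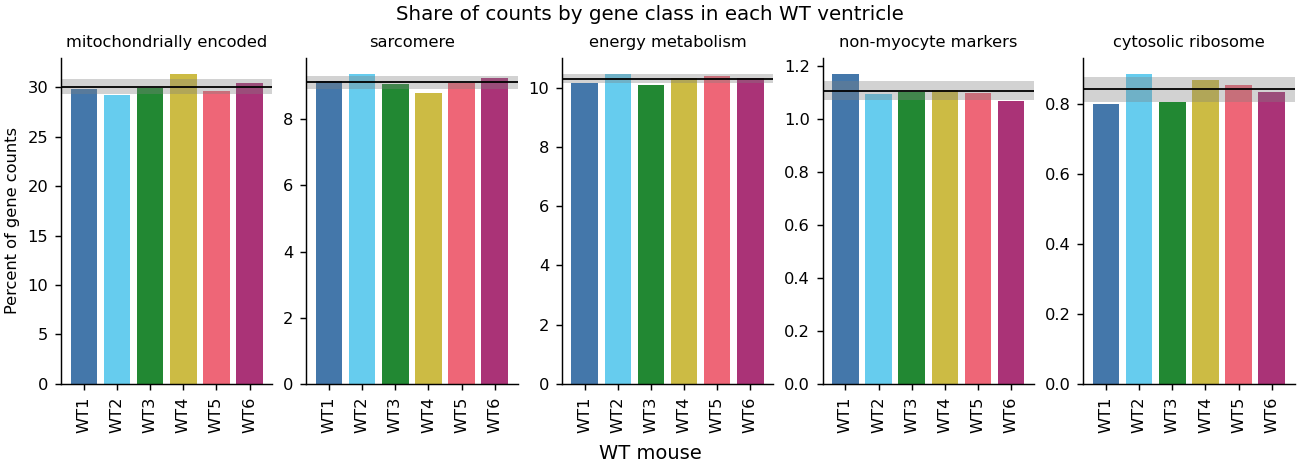
Percent of gene counts in 5 gene classes for each WT mouse (bars), with the mean (line) and SD (grey band) over the 6 mice. Axes start at 0 and differ in scale. The mitochondrially encoded class stands near 30.1% and the non-myocyte class near 1.11%, and no mouse departs far from the mean of any class.

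Markers of cells other than cardiomyocytes, 188 genes in 11 lists, held 1.11% ± 0.0346 of the counts (SD, n = 6). The share was highest in WT1, at 1.17%, and lowest in WT6, at 1.07%. Fibroblast and matrix genes had the largest part, 0.478% ± 0.0182, followed by endothelial genes with 0.304% ± 0.0134 and smooth muscle and pericyte genes with 0.203% ± 0.0126. Macrophage genes held 0.0583% ± 0.00679 and red blood cell genes 0.0358% ± 0.00612. Lymphocyte genes held 0.00213%, neutrophil and mast cell genes 0.00100% and mesothelial genes 0.000387%. These lists count marker genes only, so their shares are not shares of cells. Some listed genes, such as Abcc9, are also expressed by cardiomyocytes, so the shares can include cardiomyocyte RNA.

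The leading members of the larger lists are given here. Among endothelial genes these were Fabp4, a fatty acid carrier of capillaries, with 567.5 ± 31.2 CPM, the water channel Aqp1 with 386 ± 44.1, the caveola gene Cav1 with 320.0 ± 8.87 and the VEGF receptor Kdr with 218 ± 27.6 CPM. The junction gene Pecam1 was at 178 ± 9.87 CPM. In the smooth muscle and pericyte list, Rgs5 was at 903 ± 17.8 CPM (SD, n = 6). Its level in WT1 to WT6 was 923, 912, 921, 886, 892 and 884 CPM. Abcc9, which forms the potassium channel of pericytes and of cardiomyocytes, was at 514 ± 29.6 CPM. Among matrix genes, Gsn was at 888 ± 64.5, decorin, Dcn, at 526 ± 38.0 and the basement membrane collagens Col4a1 and Col4a2 at 497 ± 73.4 and 353 ± 38.7 CPM. Pdgfra, which marks fibroblasts, was at 60.0 ± 4.12 CPM. Macrophage genes were led by Lyz2 with 122 ± 13.6, F13a1 with 62.3 ± 8.17 and the mannose receptor Mrc1 with 43.7 ± 8.32 CPM.

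Single markers of several cell types were hardly detected. The T cell gene Cd3e averaged 0.0727 CPM, the adipocyte hormone Adipoq 0.208 CPM and the mesothelial gene Upk3b 0.112 CPM. Their lists as a whole summed to 21.3 CPM for lymphocyte, 63.0 for adipocyte and 3.87 for mesothelial genes. Of these lists 2, 2 and 0 members, in that order, were at 5 CPM or more. Tagln, an abundant smooth muscle gene, was listed at 0 in 3 mice and averaged 0.0833 CPM. Myh11 of the same cells was at 22.1 ± 2.68 CPM, so smooth muscle RNA was present and the value of Tagln is uncertain. Hemoglobin genes showed that some blood was present, with Hbb-bs at 185 ± 34.2 and Hba-a1 at 138 ± 24.8 CPM. The copies Hba-a1 and Hba-a2 are nearly identical, so the 0.956 CPM of Hba-a2 is uncertain.

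Chamber and isoform choice was read from 24 pairs of related genes, as the share of the first gene in the summed counts of both. The adult cardiac form held over 90% in 15 of the 24 pairs, by counts and also per kb. In the myosin heavy chain pair, Myh6 held 98.99% ± 0.0873 (SD, n = 6) and Myh7, the slow beta form of the fetal mouse ventricle, held 0.889 to 1.11%. Myh7 was still a well-measured transcript, at 278, 257, 300.5, 228, 291 and 251 CPM in WT1 to WT6. The troponin pairs were as one-sided: Tnni1, the slow fetal troponin I, held 0.0042% beside Tnni3, and Tnnt1 held 0.187% beside Tnnt2. Skeletal actin, Acta1, held 2.28% beside Actc1, with a range of 1.84 to 3.11%. For calcium storage, Casq2 held 99.3% against Casq1, and in gap junctions Gja1 held 98.8% against Gja5, the connexin of atria and conduction fibres.

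The atrial partners were almost absent in 5 mice and present in WT4. Myl7, the atrial regulatory light chain, was at 0.148, 0, 0.0725, 29.2, 0 and 0 CPM in WT1 to WT6. WT4 held 405 counts and the other 5 mice together 3. Sarcolipin, Sln, was at 8.23 CPM in WT4, from 114 counts, and had 0 counts in the other 5 mice. The atrial essential light chain gene Myl4 was at 31.3 CPM in WT4 and 0.509 to 1.45 CPM elsewhere, and Mybphl at 3.61 against 0 to 0.230 CPM. In each of these genes WT4 lay above every other mouse without overlap. The same held for Nppa, the atrial natriuretic peptide (7.94 against 3.12 to 5.82 CPM), Dkk3 (5.05 against 0.919 to 2.47), Fgf12 (2.02 against 0 to 0.443) and Gja5 (8.01 against 4.71 to 6.49).

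Of 19 atrial genes with a count, 13 were highest in WT4. Among those at 5 CPM or more it was 5 of 10, where WT4 held the highest level of 16.9% of all genes. Myl4, among these 5, reached 5 CPM only through WT4, and its mean over the other 5 mice was 1.01 CPM. The most abundant atrial genes moved less: Pam, a peptide-processing enzyme that ventricles also express, ranged from 628 to 712 CPM over the 6 mice, and the summed level of the list was 1643 CPM in WT4 and 1448 to 1529 in the others. Bmp10, a growth factor of the right atrium, was at 0 in all 6 mice. WT4 alone also had counts for 3 thymus genes, 13 for Rag1, 6 for Dntt and 4 for Prss16. Of the 6 listed thymus genes with a count, 4 were highest in WT4, these 3 among them. The summed level of the 9 listed was highest in WT4 but close to WT2, with 5.42 CPM in WT4, 5.19 in WT2 and 3.44 to 4.84 in the others. In every mouse, 3 of the 9 were at 0. Even in WT4 the shares were small: Myl7 held 0.457% beside Myl2, Myl4 0.799% beside Myl3 and Sln 0.676% beside Pln. Without WT4, the 5 other mice gave 0.000745% for Myl7, 0.0287% for Myl4 and 0% for Sln. Whether atrial or thymic tissue was carried into this sample was not tested. Myh6, Ttn and Ryr2 were lowest in WT4, and Acta1 was highest there, at 277 CPM against 159 to 192.5 in the other mice.

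Metabolic pairs were less one-sided. Slc2a4, the insulin-dependent glucose transporter GLUT4, held 97.2% ± 0.280 against Slc2a1 (SD, n = 6), Ckm 97.0% ± 0.0862 against the brain creatine kinase gene Ckb, Cox6a2 96.3% ± 0.339 against Cox6a1, Slc25a4 93.7% ± 0.424 against Slc25a5 and Eno3 90.6% ± 0.509 against Eno1. Ldhb, the lactate dehydrogenase subunit of oxidative tissue, held 71.0% ± 0.774 against Ldha, and 83.8% per kb. Cox8b held 76.5% ± 1.10 against Cox8a and Pgam2 90.8% ± 0.876 against Pgam1. Hk2 held 68.2% against Hk1 and Pygm 56.5% ± 0.995 against Pygb. In 2 pairs of the translation machinery, the muscle form was also ahead, with 65.6% ± 1.99 for Rpl3l against Rpl3 and 60.9% ± 0.992 for Eef1a2 against Eef1a1.

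Cox7a1, the muscle isoform of cytochrome oxidase subunit 7a, held 44.1% ± 2.70 of counts against Cox7a2, but 58.2% ± 2.71 per kb, since its exons are shorter. Cpt1b, the muscle form of the enzyme that admits fatty acids into mitochondria, held only 8.79% against Cpt1a, with 7.90 ± 1.12 CPM. The annotation has a readthrough gene, Gm44502, that covers 81.4% of the length of Cpt1b on the same strand and had 0 counts, so Cpt1b is uncertain. The same applies to Etfb, an electron carrier of fatty acid oxidation, at 1.14 CPM with 53.0% of its length shared with Gm45233.

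**Figure D3:**
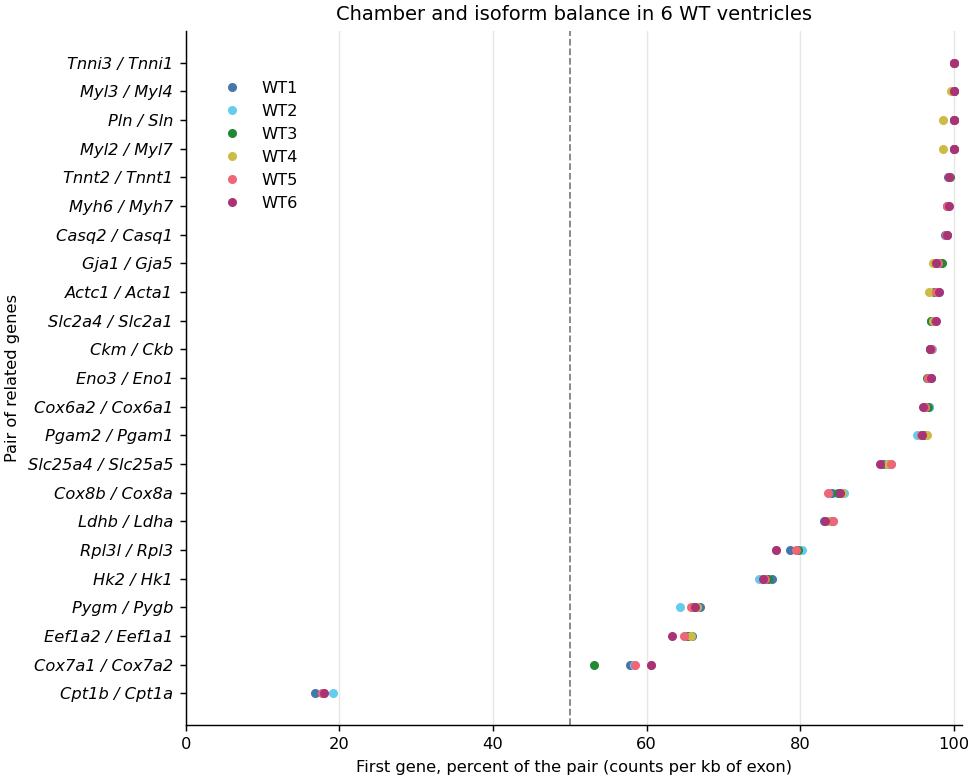
Share of the first gene in pairs of related genes, per kb of exon, in each of the 6 WT mice (points). The dashed line marks 50%. WT4 lies left of the other mice in Myl2/Myl7 and Pln/Sln, Cox7a1/Cox7a2 is the most even pair above the line, and Cpt1b/Cpt1a, whose first gene is uncertain, is alone below it.

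Most genes were steady from mouse to mouse. To compare genes of different depth, the counting part was subtracted from the squared coefficient of variation (CV) of CPM, and the root of the rest is called the biological CV here. It had a median of 0.0505 over 9510 genes with a mean of 5 CPM or more, and of 0.0424 over the 1259 genes with at least 100 CPM. A gene was called variable at a biological CV of 0.2 or more, which took 175 of the 9510 genes, or 1.84%. At the threshold, Pde3b and Ptpre at 0.1998 were just outside and Gbp5 at 0.2001 and Ucp3 at 0.2003 just inside. Only 48 of the 175 genes kept the call when any single mouse was left out. WT5 mattered most, with 57 genes lost without it, and then WT6 with 47.

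Among genes with at least 50 CPM, the lowest CV belonged to Kat2b. Kat2b, a histone acetyltransferase, was at 145.5 ± 1.42 CPM (SD, n = 6) and ranged only from 144.0 to 148 CPM. Others among the 10 genes of lowest CV, in order, were Actr1b, Ccdc47, the translation factor gene Eif4g1, Abcf1, the lysosomal gene Psap, Ywhab, Epb41l2 and Copb2. Eif4g1 was at 498 ± 5.48 and Psap at 1098 ± 12.7 CPM. For 9 of the 10 genes the spread was below the counting error itself, as in 197 of the 2697 genes with at least 50 CPM.

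**Figure D4:**
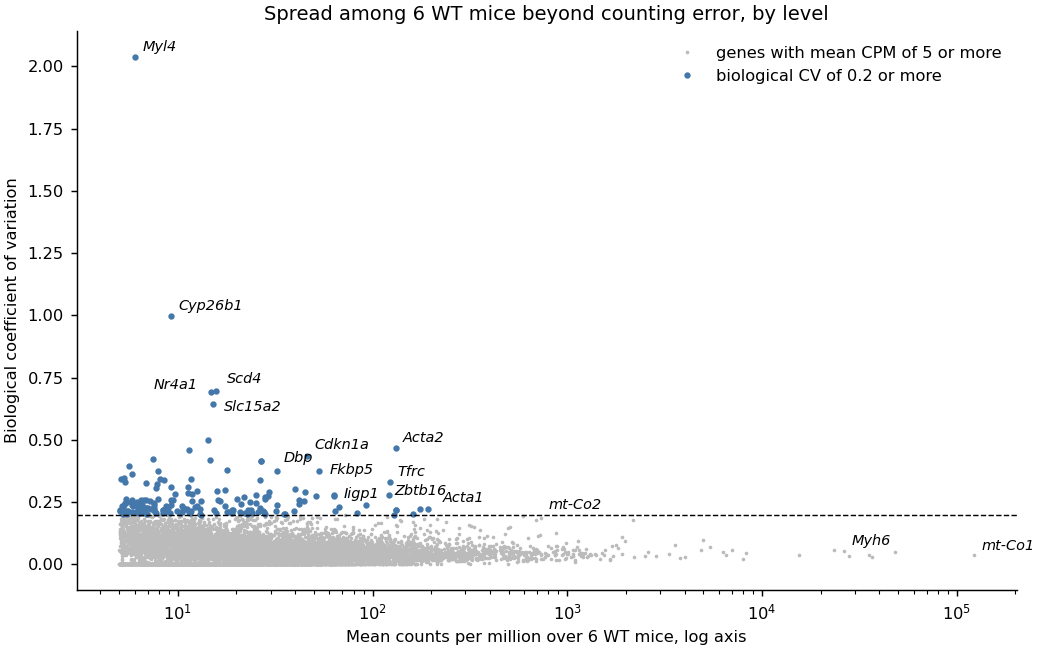
Biological coefficient of variation over the 6 WT mice against mean CPM (log axis) for 9510 genes (grey), with the 175 genes at 0.2 or more (dashed line) in blue. Myl4 stands highest at 2.04, most variable genes lie below 100 CPM, and Myh6 and mt-Co1 lie well below the dashed line.

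The most variable genes fell into those set apart by a single mouse and those spread over several. Myl4 led with a biological CV of 2.04, which rested on WT4, and without it its mean of 1.01 CPM fell below the level tested. Cyp26b1, an enzyme that breaks down retinoic acid, was at 23.8, 1.82, 1.89, 8.81, 17.1 and 2.22 CPM in WT1 to WT6 (biological CV 0.999). It was high in WT1 and WT5, intermediate in WT4 and low in the other 3 mice. Scd4, a cardiac stearoyl-CoA desaturase, was at 37.9 CPM in WT5 and 9.11 to 12.8 CPM in the others, and its biological CV fell from 0.698 to 0.124 without WT5. Irs2, the insulin receptor substrate, was also set apart by WT5, with 26.5 CPM against 9.21 to 15.3, and went from 0.418 to 0.190 without it.

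Slc15a2, a peptide transporter, had 2 high mice, WT2 with 29.2 and WT6 with 24.8 CPM, and a low of 4.06 CPM in WT1 (biological CV 0.645). Nr4a1, a nuclear receptor induced within an hour of many stimuli, was at 14.7, 9.49, 5.58, 4.98, 30.0 and 24.6 CPM in WT1 to WT6 (0.692). The salt-inducible kinase gene Sik1 was high in the same 3 mice, WT5 with 39.8, WT1 with 37.7 and WT6 with 32.9 CPM, and at 15.2 to 18.3 CPM in the others (0.416). Of 14 immediate early genes at 5 CPM or more, 2 were variable (14.3% beside 1.84% of all genes), Nr4a1 and Fosl2. Fosl2 lost the call without WT4 or without WT5. Of the 14, 8 had their highest level in WT5, against 16.3% of all genes. Others of the 20 most variable named genes were Fam107a (0.499), Rasgef1b (0.459), Atcay (0.424), Slc10a6 (0.396), Map3k6 (0.380) and Serpina3n (0.347).

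Above 100 CPM, 9 genes were variable. Acta2, the actin of smooth muscle, was at 103, 126.5, 250.5, 83.8, 89.6 and 136 CPM in WT1 to WT6 (biological CV 0.469), with WT3 alone high. Of the 14 smooth muscle and pericyte genes at 5 CPM or more, 5 were highest in WT3, Acta2 among them, and 0 lowest there. Over all genes at that level, WT3 was highest for 16.1% and lowest for 17.0%. The summed level of the list, which includes Acta2 itself, was 2242 CPM in WT3 and 1926 to 2066 in the others. Myh11 was at 21.6 and Smtn at 150.4 CPM in WT3, within the range of the other mice. Tfrc, the transferrin receptor that imports iron, was at 162, 89.2, 115, 121, 70.8 and 177 CPM in WT1 to WT6 (0.332), high in WT6 and WT1 and low in WT5. The same mouse, WT6, was highest for Ppp1r3c, a glycogen-targeting phosphatase subunit, with 179 CPM, and for Ptgds, with 179 CPM. Ndufa12, a subunit of complex I, ranged from 84.2 CPM in WT2 to 163 CPM in WT6, and was the only variable gene among 36 complex I genes. The other 4 were Zbtb16, Acta1, B2m and Ucp3.

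Genes of the circadian clock were among the groups that varied. The clock is a loop in which BMAL1, encoded by Arntl, drives genes with E-box sequences such as Per and Dbp, whose products peak when Arntl is low. Of 23 listed clock genes, 22 passed 5 CPM and 5 were variable, or 22.7% beside the 1.84% of all genes. Arntl was at 17.0, 7.14, 8.92, 16.3, 8.97 and 12.0 CPM in WT1 to WT6. Dbp was at 14.0, 38.7, 49.5, 26.4, 36.4 and 28.2 CPM, and Per3 at 18.7, 33.4, 39.4, 21.4, 29.5 and 25.6 CPM. WT1 and WT4, the mice with the most Arntl, had the least of both Dbp and Per3, and WT3 had the most of both. Ciart, a repressor of the loop, was at 3.91 in WT1 and at 11.6 and 11.1 CPM in WT2 and WT6, and Per2 ranged from 13.1 in WT1 to 23.5 CPM in WT2. In all, 11 of the 22 genes had their lowest level in WT1, against 17.9% of all genes. Of the 5 calls, 4 held whichever mouse was left out, and Per2 was lost without WT2.

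Over the 6 mice, log2 CPM of Arntl and Per3 had Pearson's r = -0.906 (exact permutation p = 0.0125, adjusted p = 0.122) and Spearman's rho = -0.943 (exact permutation p = 0.0167, adjusted p = 0.100). For Arntl and Dbp, r was -0.832 (exact permutation p = 0.0236, adjusted p = 0.122) and rho -0.943 (exact permutation p = 0.0167, adjusted p = 0.100). Without WT1 and WT4, the mice farthest from the median of Arntl, r was -0.641 and -0.62 over the remaining 4. These were 2 of 12 relations computed, of which 0 passed after adjustment. Exons of Dbp overlap those of Sphk2 on the opposite strand over 18.0% of its length, and Sphk2 was at 10.3 CPM. The times at which the mice were killed are not known from the labels, and their part in these differences was not tested.

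The windows before the start of Ciart and Per3 are shown since they hold the clock motifs more than once. They are 250 bases from RefSeq on build GRCm38.p6, Ciart at chr3:95882229-95882478 and Per3 at chr4:151044666-151044915, both on the minus strand, and capitals mark the E-box CACGTG in Ciart and the D-box TTATGNAA in Per3.
Ciart: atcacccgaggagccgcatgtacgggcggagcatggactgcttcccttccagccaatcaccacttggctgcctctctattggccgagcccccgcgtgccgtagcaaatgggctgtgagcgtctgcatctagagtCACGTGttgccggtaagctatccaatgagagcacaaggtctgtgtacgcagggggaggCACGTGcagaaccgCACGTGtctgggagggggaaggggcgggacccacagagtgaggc
Per3: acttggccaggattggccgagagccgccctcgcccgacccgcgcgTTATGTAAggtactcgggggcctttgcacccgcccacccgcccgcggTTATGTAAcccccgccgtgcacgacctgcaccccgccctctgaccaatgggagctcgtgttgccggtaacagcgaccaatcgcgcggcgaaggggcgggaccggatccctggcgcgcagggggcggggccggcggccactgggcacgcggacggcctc
The 3 E-boxes of Ciart begin 116, 58 and 44 bases before the start, and the 2 D-boxes of Per3 205 and 158 bases before it. Searched on both strands, CACGTG occurred in 6.02% and TTATGNAA in 3.07% of 32851 windows of that length. Of 18 clock genes with a window, 5 held CACGTG and 2 held TTATGNAA. A match describes letters in the window, not bound protein.

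Genes known to respond to glucocorticoid hormone also varied. Of 15 listed genes, 12 passed 5 CPM and 6 were variable (50% beside 1.84% of all genes): Zbtb16, Mt1, Fkbp5, Ddit4, Cdkn1a and Arrdc2. Fkbp5, which encodes a chaperone of the glucocorticoid receptor and is one of its standard target genes, was at 60.1, 48.5, 38.4, 45.9, 35.5 and 90.2 CPM in WT1 to WT6. WT6 stood above the rest and WT5 was lowest. Arrdc2 had the same order at its ends, with 41.3 CPM in WT6 and 12.4 in WT5, as did Zbtb16, with 228 and 115 CPM. Cdkn1a, the cell cycle inhibitor p21, was instead highest in WT1, at 80.0 CPM, with 58.8 in WT6 and 26.8 in WT3. Of the 12 genes, 7 had their highest level in WT6 and 3 in WT5, and the lowest level lay in WT5 for 5 and in WT3 for 4. WT6 was highest for 18.5% of all genes and WT5 for 16.3%. WT5 was lowest for 15.6% of all genes and WT3 for 17.0%. The 3 of the 12 that were highest in WT5 were Pdk4, Sgk1 and Angptl4, the last 2 named after their values were seen. The calls of Zbtb16 and Mt1 were lost without WT5 and without WT6, in that order, and the other 4 held whichever mouse was left out. The hormone was not measured, and the labels name no handling, time of day or feeding state, so its part was not tested.

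Interferon-response genes, which cells switch on when interferon binds its receptors, more often had their highest level in WT5 than in any other mouse. Of 31 listed genes, 23 passed 5 CPM, 3 were variable (13.0% beside 1.84% of all genes) and 13 were highest in WT5, against 16.3% of all genes. All 3 calls, Iigp1, Igtp and Gbp3, were lost without WT5, and Gbp3 also without WT3 or WT6. Iigp1, a GTPase that attacks the vacuoles of intracellular pathogens, was at 58.6, 65.7, 49.3, 65.8, 95.5 and 47.0 CPM in WT1 to WT6. Igtp was at 9.16, 12.0, 9.43, 11.4, 18.7 and 10.6 CPM, and Gbp3 at 17.3, 17.4, 11.3, 15.2, 20.5 and 12.6 CPM. WT5 was above every other mouse for all 3. Related genes outside the list were chosen after their values were seen: Irgm2 was at 44.6 CPM in WT5 and 20.5 to 28.2 in the others, and Tgtp2 at 10.3 and 3.37 to 8.16 CPM. Others went the opposite way: Ifi205 and Ifi207, also variable and outside the list, were lowest in WT5. Ifi205 was at 9.36 CPM there and 15.4 to 25.8 in the others, and Ifi207 at 8.66 and 14.4 to 21.2 CPM. B2m, the light chain of MHC class I, was at 174, 159, 124, 176, 208.5 and 123 CPM in WT1 to WT6.

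The 120 bases before the start of 3 of these GTPase genes are shown because each holds the letters of 2 interferon motifs side by side. They are from RefSeq on GRCm38.p6: Igtp at chr11:58199436-58199555 and Irgm2 at chr11:58214857-58214976, both on the plus strand, and Tgtp2 at chr11:49064213-49064332 on the minus strand. Capitals mark first the GAS motif TTCNNNGAA and then the ISRE core, TTTC and TTTC with any pair of bases between, which reads here in reverse complement.
Igtp: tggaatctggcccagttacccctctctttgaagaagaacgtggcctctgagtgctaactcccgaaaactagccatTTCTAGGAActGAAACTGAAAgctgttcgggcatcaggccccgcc
Irgm2: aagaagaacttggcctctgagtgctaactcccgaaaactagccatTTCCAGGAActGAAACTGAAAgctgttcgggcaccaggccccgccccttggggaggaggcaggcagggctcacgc
Tgtp2: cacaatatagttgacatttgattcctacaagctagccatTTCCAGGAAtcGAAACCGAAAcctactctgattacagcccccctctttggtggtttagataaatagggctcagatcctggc
On both strands, TTCNNNGAA occurred in 7.02% and the ISRE core in 2.98% of the 32851 windows of 250 bases. Of 23 listed interferon genes with a window, 6 held the first and 13 the second. Sequence shortly after the start was found in GENCODE M21 transcripts of Igtp and Tgtp2 but not of Irgm2, whose start is uncertain. Igtp and Irgm2 lie side by side and share 162 bases of exon on 1 strand, so some reads could be counted for either or neither.

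Of the non-myocyte lists, the variable genes were mainly 4 of 18 macrophage genes and 4 of 6 endocardial and lymphatic genes at 5 CPM or more (22.2 and 66.7%, beside 1.84% of all genes). Without WT5, 0 of the 4 endocardial and lymphatic calls remained. Without WT3, 2 of the 4 macrophage calls remained, Cd163 and H2-Eb1, while H2-Aa and H2-Ab1 were lost. Among macrophage genes, the MHC class II genes moved together: H2-Eb1 was at 35.4, 23.5, 17.9, 33.1, 35.5 and 23.1 CPM in WT1 to WT6, and H2-Ab1 and H2-Aa were likewise lowest in WT3 (for H2-Aa, level with WT2) and highest in WT4 or WT5. Cd163, a scavenger receptor of resident macrophages, followed another order, highest in WT1 with 57.4 and lowest in WT5 with 29.9 CPM. The summed level of all 26 macrophage genes ranged from 484 CPM in WT3 to 677 CPM in WT1. Lyve1, Npr3, Ccl21a and Mmrn1, listed as markers of lymphatic vessels or endocardium, were all lowest in WT5. Npr3 was at 13.5 CPM there and 22.3 to 26.9 CPM in the other 5 mice. Prox1, a transcription factor gene of the same list, was at 85.4 ± 12.1 CPM and was highest in WT5, at 101.4 CPM. Prox1 made up much of the summed level of the list, 172 CPM. Which cells expressed Prox1 or Lyve1 was not tested.

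The counts of other lists stand beside the same 1.84% of all genes. Of 207 energy genes at 5 CPM or more 3 were variable (Ndufa12, Ucp3 and Bdh1), of 56 sarcomere genes 2 (Acta1 and Myl4, both lost without WT4), of 46 calcium and excitation genes 2 (Kcna5 and Scn4b), of 10 atrial genes 2 (Myl4 and Kcna5), of 74 cytosolic ribosomal genes 0, of 9 ventricular genes 0 and of 15 heat shock genes 0. Myl4 reached 5 CPM, and so entered these counts, only through WT4. These shares, like those above, are descriptions of lists and were not tested.

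**Figure D5:**
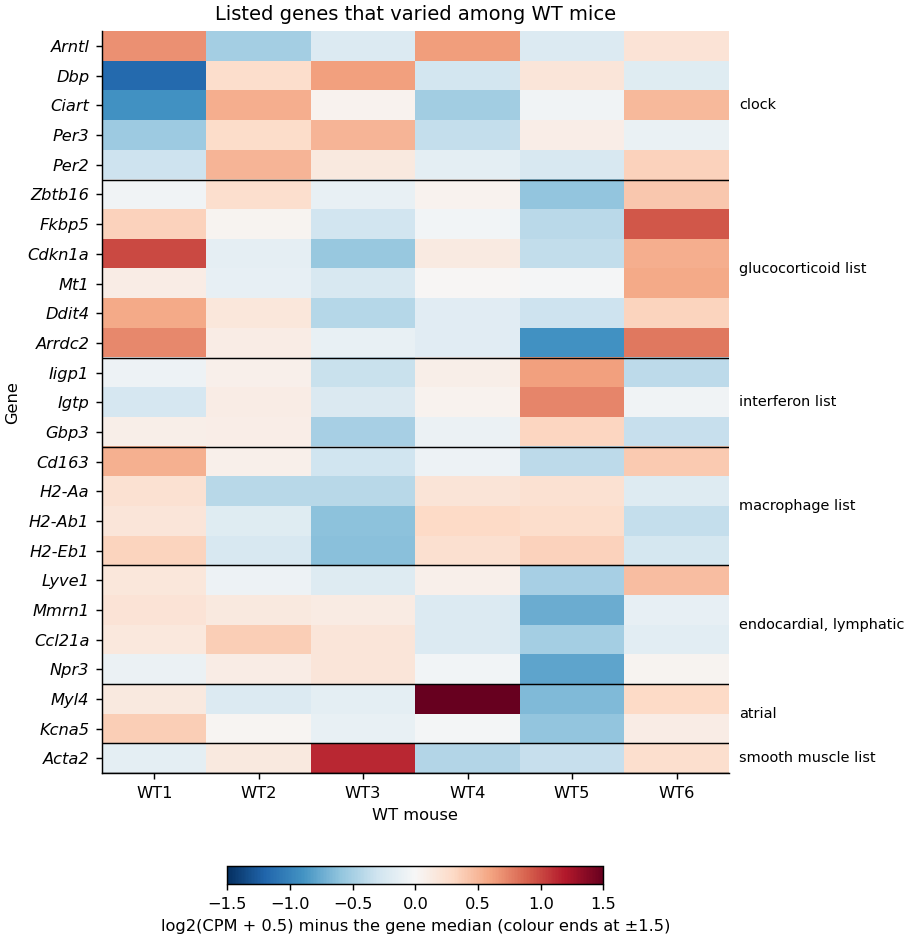
Deviation of variable genes from their own median over the 6 WT mice, as log2(CPM + 0.5), red above and blue below, with colour ending at ±1.5. Shown are the clock, glucocorticoid, interferon, macrophage, endocardial and lymphatic, atrial and smooth muscle lists. Variable genes found only on other lists are left out. Columns are mice and rows are genes grouped by list. WT1 is blue in Dbp, Ciart and Per3, WT5 is red in the interferon genes and blue in the endocardial and lymphatic genes, WT6 is red in Fkbp5 and Arrdc2, and Myl4 is dark only in WT4.

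The mice did not contribute evenly to this spread. Of the 175 variable genes, 46 were highest in WT1, 45 in WT5 and 41 in WT6, against 19 in WT4, 15 in WT2 and 9 in WT3. The lowest level lay in WT5 for 51, in WT3 and in WT6 for 35 each, and in WT1 for 21. Over all 9510 genes, each mouse was highest for 16.1 to 18.5% and lowest for 12.9 to 19.3%. Hemoglobin moved with WT1 as well: Hba-a1 was at 176, 129, 137.5, 154, 104 and 126 CPM in WT1 to WT6, and its r with Hbb-bs was 0.851 (exact permutation p = 0.0306, adjusted p = 0.122), and 0.557 without WT1 and WT5. Spearman's rho was 0.771 (exact permutation p = 0.103, adjusted p = 0.350). For 7 further relations the exact permutation p of r lay between 0.101 and 0.611, and no r is given for the 2 relations with Myl7, where WT4 stands alone.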

How the data were processed

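The authors deposited raw read counts, whole numbers for each gene and mouse with no normalization. Per the submitters' processing notes, the tools were HTSeq 0.9.1, HISAT2 2.1.0 and fastp 0.22.0 and the build was GRCm39. The sources used here give neither the annotation release nor the strand setting. Per the labels' protocols, mRNA was captured on poly-T beads, and PCR enriched the libraries. No molecular identifiers are mentioned, so a count is a read, not a molecule, and counting error is a lower limit. Groups came from the sample titles. No column was left unmapped (0 columns). Of 21959 gene IDs, 5491 had 0 counts in all 6 WT mice. Names, chromosomes and exon lengths came from GENCODE M21 on GRCm38, another build than that of the counts, and matched 21902 IDs, of which 99.4% are protein coding. The 57 unnamed IDs held 0.016% of counts. A symbol with 2 IDs (27 symbols) was read from the ID with more counts. Genes that overlap, or that have close copies, are uncertain where named so.

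TMM factors of the 6 WT libraries came from edgeR 4.0.16 in R 4.3.3, and all else was computed in Python 3.11.15 with scipy 1.17.1. The squared counting CV is the mean of 1 over the expected count. On simulated counts of 9510 genes (variation among 6 WT mice), with a biological CV of 0.05 for the other genes, 38.5% of 200 genes with a true biological CV of 0.2 were called, 94.5% at 0.4 and 99.5% at 0.8, with 1, 4 and 2 other genes called. Real genes had many values of biological CV, some just under 0.2, so the few other genes called do not measure false calls in the data. Log2 values used a pseudocount of 0.5. For genes with at least 20 summed counts in a pair of mice, chi-square per gene was 3.40 to 5.59, so no library was treated as a repeat. The common biological CV by edgeR was 0.0701.

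The members, the 36 gene lists and the tests were chosen with earlier results of these data known. Genes named are the 25 highest by CPM, the 10 highest nuclear genes per kb, up to 4 leading members and all variable members of each list described, both genes of each pair, the 20 most variable genes and the 10 most variable at 100 CPM or more, the 10 least variable at 50 CPM or more (all without predicted names), genes of the relations, and Vps13c. Other genes were named after their values were seen. Alternatives were DESeq2 1.42.0 size factors, upper-quartile factors, total counts, other minimum levels and thresholds, edgeR dispersions, per-kb values and leaving out each mouse. Results for a few genes, including 1 of the 24 pairs, are not reported here.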

Additional observations from a re-analysis of the deposited data

Results flagged for a closer look

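Of 95 values checked, 11 had 1 mouse far from the other 5, with a gap to the nearest mouse, as a share of the range, above Dixon's 95% critical value. Chance sets apart about 1 in 20 groups not chosen for their spread. That rate is no reference for these 11, since many of the 95 were chosen as the most variable genes, and Myl7, Myl4 and Sln enter both as a level and as a share.

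WT4 was far above the rest in 7 of them. The share of Myl7 beside Myl2 was 0.457% in WT4 and at most 0.00253% elsewhere, that of Myl4 beside Myl3 was 0.799% against at most 0.0407%, and that of Sln beside Pln was 0.676% against 0%. The levels were 29.2 CPM for Myl7, 31.3 CPM for Myl4, 8.23 CPM for Sln and 277 CPM for Acta1 in WT4.

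WT5 was far above the rest for Scd4, with 37.9 CPM, and for Irs2, with 26.5 CPM. WT3 was far above for Acta2, with 250.5 CPM where the next mouse had 136 CPM. WT3 was also far below for the share of Tnnt1 beside Tnnt2, with 0.139% against 0.185 to 0.211%.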

How the results depend on the processing

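Per kb of exon, the mitochondrially encoded share was 56.8% in place of 30.1%, the sarcomere share 6.10%, the energy share 9.43%, the non-myocyte share 0.743%, and 5.5 genes held 50% of the signal. Without mitochondrially encoded genes in the total, these were 13.1% for sarcomere, 14.7% for energy and 1.59% for non-myocyte genes, and 514.5 genes held 50%. Leaving out each mouse moved the shares only within 29.8 to 30.3, 9.08 to 9.19, 10.3 to 10.4 and 1.10 to 1.12%. Cox7a1 against Cox7a2 turned from below to above 50% per kb (58.2%). The number of variable genes was 754 with a minimum of 1 CPM, 3321 with no minimum, 54 with a minimum of 20 CPM, 34 at a threshold of 0.3 and 25 by edgeR's tagwise dispersion, which draws genes toward a common value. It was 174 with DESeq2 size factors, 176 with total counts, 172 with upper-quartile factors, and 150 to 212 without 1 mouse. Of 28 named variable genes, leaving out WT5 took 5 below 0.2 (Scd4, Irs2, Zbtb16, B2m and Ucp3), WT6 took 3 (Ppp1r3c, Ptgds and B2m), WT2 took 2 (Ndufa12 and Ptgds), WT3 took B2m and WT4 took Acta1. Ucp3 also fell below it with DESeq2 and upper-quartile factors. The tagwise dispersion took 8 below it, Tfrc, Ppp1r3c, Zbtb16, Acta1, Ndufa12, Ptgds, B2m and Ucp3, which leaves Acta2 of the 9 at 100 CPM or more. Without the 2 mice farthest from the median, r turned from -0.670 to 0.00485 for Arntl and Nr1d1, from 0.541 to -0.748 for Arntl and Npas2 and from 0.235 to -0.703 for Fos and Egr1. The cause of these turns was not tested. No paired analysis was possible because a single group of mice was described and no groups were compared (the test of neighbouring genes paired genes within a mouse). Depth limits genes below 5 CPM, where counting error exceeds most differences between mice.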
